A study of Mus musculus with 36 samples.

Results

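The expression of 9 genes of the alcohol and aldehyde dehydrogenase families was followed in mouse liver after acetaminophen: Adh1, Adh4, Adh5, Aldh2, Aldh1a1, Aldh1b1, Aldh1l1, Aldh3a2 and Aldh8a1. They were chosen by name, and their members are the 16 probe sets that the platform annotation gives to exactly 1 of these symbols, out of 45101 probe sets on the array and 34945 with a single symbol. All 9 genes and all 16 probe sets were bright enough to be tested, among 13981 of 18193 genes. Total RNA from whole liver was measured on 36 Affymetrix arrays, with 1 mouse per array, in 4 strains labelled SJL, SMJ, DBA and C57. All mice were fasted overnight, and those of the later times had received 1 intraperitoneal injection of 300 mg/kg of acetaminophen, the common pain and fever drug that is toxic to liver in overdose. Livers were taken before the dose (0 h), 3 h after it and 6 h after it, from 3 mice per strain and time, which makes 12 groups of 3. SJL is named as resistant to the injury by the series and SMJ, DBA and C57 as sensitive. The mice at 0 h had been fasted and not dosed, and the labels name no vehicle group at the later times, so effects of the clock and of longer fasting cannot be told apart from those of the drug. Age and sex are not given in the sources used here. The values are MAS5 signals, which are on a linear scale without a physical unit, so a gene is compared only with itself across mice. Because whole liver was measured, fewer cells of a type and less RNA per cell cannot be told apart.

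Alcohol dehydrogenases remove hydrogen from alcohols such as ethanol and retinol and pass it to NAD, which leaves an aldehyde, and aldehyde dehydrogenases turn the aldehyde into an acid. The liver holds most of the body's capacity for both steps, divided between the cytosol (Adh1, Adh4, Adh5, Aldh1a1, Aldh1l1, Aldh8a1), the mitochondrion (Aldh2, Aldh1b1) and the membrane of the endoplasmic reticulum (Aldh3a2). Aldehydes arise from ethanol, from vitamin A, from amino acids and folate, from long-chain alcohols and from lipids broken down by oxygen radicals. The families are therefore read in liver as routes for clearing reactive carbonyl compounds.

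Over the 4 strains together, the largest movements among the 9 genes were falls of Aldh3a2 and Aldh8a1. Aldh3a2, the fatty aldehyde dehydrogenase, was 3.22-fold lower at 6 h than at 0 h, and Aldh8a1, an enzyme of tryptophan breakdown, was 1.64-fold lower. Adh4 also fell, by 0.64 on the log2 scale, and Aldh2 and Aldh1l1 rose by less than either fall, whereas Adh1, Adh5, Aldh1a1 and Aldh1b1 did not pass the test for the mean change. A call in the text means a limma p, adjusted by the Benjamini-Hochberg method over all genes tested in that comparison, below 0.05. At 6 h, 2 of the 9 genes were called higher and 3 lower, against 12.5% of all tested genes called higher and 20.1% lower. At 3 h, 1 was called higher and 2 lower, against 3.1% and 3.96% of all genes. From 3 h to 6 h, 2 were called lower and 0 higher, with 3 at an unadjusted p under 0.05 in either direction, against 9.53% and 6.92% of all genes. The median change of the 9 genes at 6 h was 0.01 on the log2 scale, and that of all tested genes was -0.05. With each array scaled to its 75th percentile instead, the split of all called genes moved from 434 higher and 553 lower to 579 and 382 at 3 h, and from 1751 and 2816 to 2073 and 2296 at 6 h. The plot of signals by mouse shows the 9 genes in every animal.

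**Figure D1:**
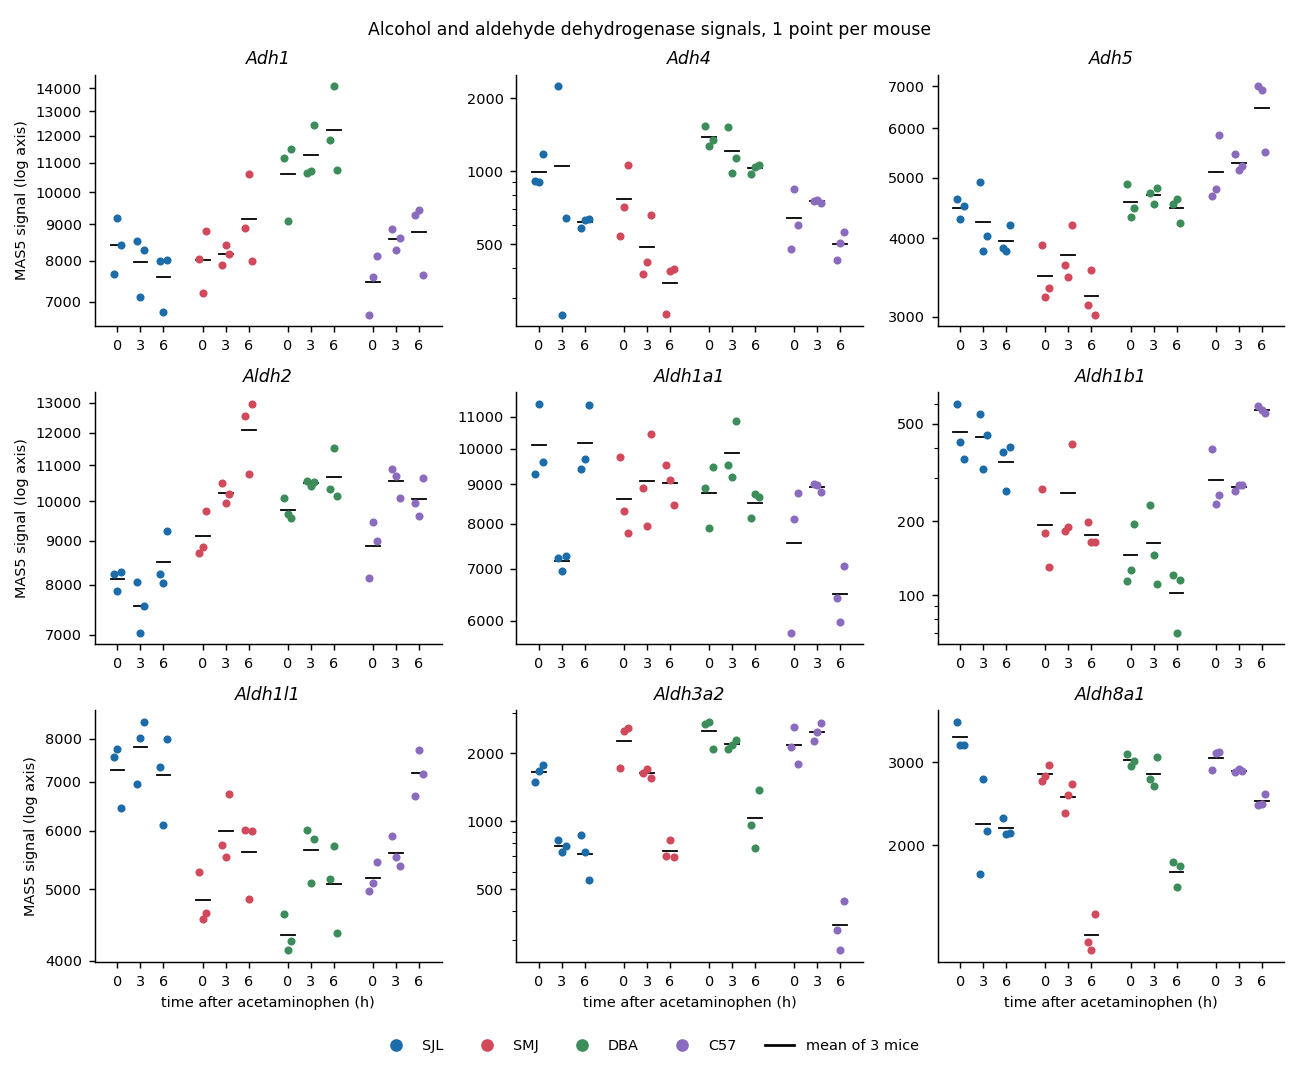
MAS5 signal (log axis, a separate range in each panel) of the 9 genes in each of the 36 mice, by strain and by hours after acetaminophen; bars are means of 3 mice. Aldh3a2 in C57 stood at 269 to 445 at 6 h against 1789 to 2600 at 0 h, and Aldh1b1 in C57 at 555 to 590 against 235 to 394.

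Within single strains, 13 of 72 tests of a gene at 3 h or 6 h against 0 h were called, and the plot of changes by strain gives all of them. In SJL 3 of the 9 genes were called at 3 h and 2 at 6 h, where 9.93% and 7.02% of all genes were called. In SMJ 0 of 9 were called at 3 h and 3 at 6 h, where the shares of all genes were 0.172% and 20.9%. In DBA the counts were 0 and 2, against 1.5% and 12.4% of all genes. In C57 they were 0 and 3, against 0.279% and 10% of all genes. At an unadjusted p under 0.05 in limma, 2 genes in SMJ, 1 in DBA and 1 in C57 passed at 3 h. Fitted on only the arrays of the groups compared, 5 of the 72 tests were called: Aldh3a2 at 6 h in SJL, SMJ and C57 and Aldh8a1 at 6 h in SMJ and DBA. In the fit over all arrays SJL was thus the one in which members were called at 3 h, although all strains shared falls of Aldh3a2 at 6 h.

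**Figure D2:**
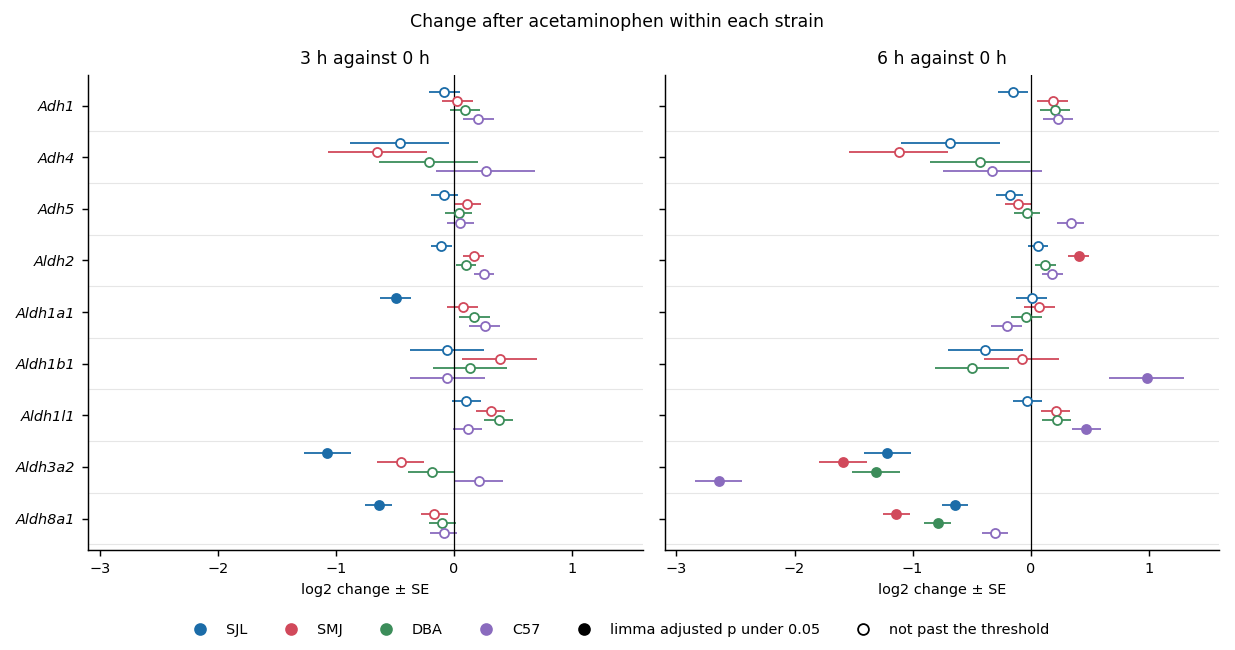
Log2 change from 0 h to 3 h (left) and to 6 h (right) of the 9 genes in each strain, with bars of 1 standard error from the fit over all 36 arrays; filled points have a limma adjusted p under 0.05. At 3 h the 3 filled points are all SJL, and at 6 h Aldh3a2 is filled in all 4 strains, from -1.21 in SJL to -2.64 in C57.

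Among the alcohol dehydrogenases, Adh4 fell, and Adh1 and Adh5 had no called change with time as the arrays were deposited, although with quantile normalization both were called lower in the mean at 6 h. The RefSeq annotation places the 3 genes in 1 cluster, with Adh4 and Adh5 next to each other and Adh6a and Adh6b between Adh1 and Adh4. Adh1 is the class I enzyme that oxidises ethanol and retinol. In C57 its signals were 6714, 7585 and 8112 at 0 h, 8883, 8287 and 8623 at 3 h, and 9287, 9426 and 7625 at 6 h. All 3 C57 mice at 3 h lay above all 3 at 0 h, the change was 0.21 ± 0.13 (SE) on the log2 scale, and it did not pass the test (adjusted p = 0.768). The mean change of Adh1 over the strains at 6 h was 0.12 ± 0.06 (adjusted p = 0.176), and with quantile normalization it turned to -0.17 and was called (adjusted p = 0.0347), so its sign depends on how the arrays are scaled. Adh1 differed between the strains before the dose by limma's moderated F test, a call lost with scaling to the 75th percentile or quantile normalization. DBA had 11156, 9113 and 11495 at 0 h, of which the lowest was exceeded by 1 of the other 9 mice, SJL2 with 9200. DBA stood 0.41 ± 0.11 above the mean of the other strains (adjusted p = 0.012). Without DBA113 or DBA115 the difference was 0.37 or 0.34 and was no longer called. When only the groups compared were fitted, it was not called either (adjusted p = 0.0533).

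Adh4 is the class II enzyme, which also acts on retinol and on long-chain and aromatic alcohols. In DBA its signals were 1537, 1275 and 1345 at 0 h and 978, 1038 and 1063 at 6 h. In SMJ they were 539, 709 and 1062 at 0 h and 258, 386 and 395 at 6 h, and in SJL 909, 902 and 1178 at 0 h and 586, 627 and 634 at 6 h. In these 3 strains every mouse at 6 h was below every mouse at 0 h, and in C57 the mice at 6 h (432, 508 and 559) overlapped those at 0 h (478, 842 and 599). How many of all genes separate in this way was not counted, for Adh4 or for any other gene described here. The change of Adh4 did not differ between strains by limma's moderated F test (adjusted p = 0.831). The mean change at 6 h was -0.64 ± 0.21 (adjusted p = 0.0202), and no strain passed on its own (adjusted p from 0.0597 in SMJ to 0.702 in C57). The widest of its 12 groups was SJL at 3 h, with 2243 in SJL39, 256 in SJL40 and 641 in SJL42. Without SJL39 the SJL change at 3 h moved from -0.46 to -1.28 and the mean change at 3 h from -0.26 to -0.47, and both were then called. Without SJL39, SJL40 or SMJ56 the SMJ change at 6 h was called, at -1.12, -1.12 and -1.34.

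Adh5 is the class III enzyme, which oxidises the adduct of formaldehyde and glutathione and reduces S-nitrosoglutathione. Its mean change at 6 h was 0.01 ± 0.06 (adjusted p = 0.951), and with quantile normalization it was -0.16 and was called (adjusted p = 0.00878), as was that of SMJ (-0.32, adjusted p = 0.0179). The change of Adh5 did not pass limma's moderated F test for a difference between strains (adjusted p = 0.168). C57 went from 4678, 4806 and 5844 at 0 h to 7010, 6913 and 5491 at 6 h. SJL went from 4622, 4296 and 4509 to 3860, 3816 and 4196, a change of -0.18 ± 0.11 that was not called (adjusted p = 0.415). The 3 SJL mice at 6 h lay below the 3 at 0 h, and in C57 2 of 3 lay above all those at 0 h. The C57 change of 0.34 ± 0.11 missed the threshold (adjusted p = 0.0569), and without C57182 or C57237 it was 0.44 or 0.45 and was called. The difference between the C57 change and that of the other strains, 0.44 ± 0.13, was called with an adjusted p of 0.0497, and the call was lost without any 1 of 28 of the 36 arrays and in 6 of 10 other settings. Before the dose SMJ had the lowest level (3902, 3224 and 3337) and C57 the highest. SMJ stood 0.43 below the mean of the others (adjusted p = 0.00262) and C57 0.30 above it (adjusted p = 0.0349). The C57 call at 0 h was lost without any 1 of 7 arrays, down to 0.20 without C57182. A second probe set of Adh5, 1443380_at, was not called at 6 h (0.15 ± 0.19).

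Aldh2 and Aldh1b1, the mitochondrial enzymes that oxidise acetaldehyde and other small aldehydes, behaved differently from each other. Aldh2, measured by its brightest probe set 1448143_at, rose from 8699, 8857 and 9748 at 0 h to 12555, 10748 and 12967 at 6 h in SMJ, with no overlap. The SMJ change was 0.41 ± 0.09 (1.33-fold, adjusted p = 0.00136). The mean change of the strains at 6 h was 0.19 ± 0.04 (adjusted p = 0.00098). These rises depend on the scaling and the probe set: with quantile normalization the SMJ value turned to -0.21 and the mean to -0.12, and with the mean of the gene's probe sets the mean was -0.03. Levels of Aldh2 in SJL stayed under those of the other strains after the dose. At 3 h the SJL mice had 8057, 7041 and 7561, and the other 9 mice lay between 9943 and 10901.

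Aldh2 has 5 probe sets, which did not move together. The dimmer set 1437410_at fell by 0.56 ± 0.15 at 3 h (adjusted p = 0.0191 over all probe sets tested) and by 0.60 ± 0.15 at 6 h (adjusted p = 0.00256), against the rise of 1448143_at. In DBA its signals went from 352, 262 and 342 at 0 h to 174, 176 and 132 at 3 h, and in C57 they stayed between 238 and 330 at all times. The sets 1434987_at, 1434988_x_at and 1457155_at were not called at 6 h (0.16 ± 0.15, 0.09 ± 0.18 and 0.00 ± 0.11). The set 1457155_at separated SJL from the other strains before the dose, with 32.7, 39.5 and 26.3 in SJL and between 49.1 and 101.6 in the other 9 mice. Its SJL level was 1.15 ± 0.18 lower than the mean of the others (adjusted p = 0.000102). What part of the transcript each set reads was not analysed here. Over all tested probe sets 30.9% were called at 6 h and 10.8% for SJL against the others at 0 h, and 7 of the 16 sets of the 9 genes were called at 6 h.

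**Figure D3:**
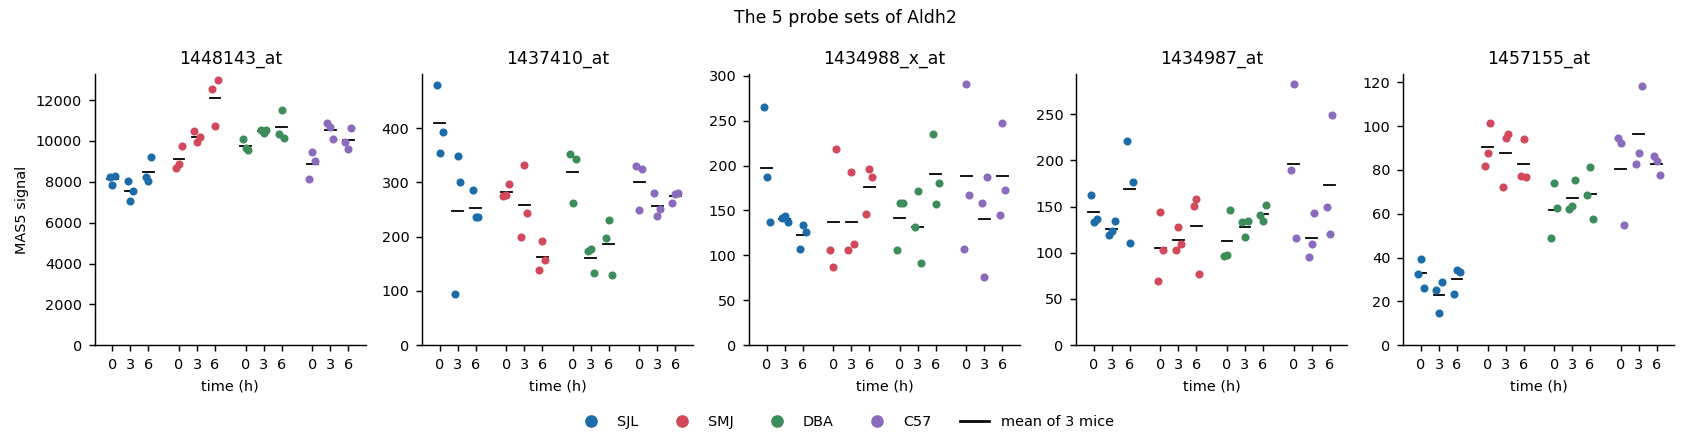
MAS5 signal (linear axes from 0, a separate range in each panel) of the 5 probe sets of Aldh2 in each of the 36 mice; bars are means of 3 mice. The set 1448143_at was highest in SMJ at 6 h, 1437410_at lay below the 0 h range at 6 h in SJL, SMJ and DBA, and 1457155_at was lower in SJL than in the other strains at each time.

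Aldh1b1 was lowest in DBA and highest in SJL before the dose, and it rose in C57. SJL had 603, 420 and 361 at 0 h, C57 394, 235 and 257, SMJ 271, 179 and 130, and DBA 114.1, 126.9 and 195. SJL stood 1.19 ± 0.26 above the mean of the others (2.28-fold, adjusted p = 0.00283) and its lowest mouse overlapped only the highest C57 mouse. In C57 at 6 h the signals were 590, 572 and 555, all above the range at 0 h, a change of 0.98 ± 0.32 (1.98-fold, adjusted p = 0.0471). In SJL (382, 267 and 401) and DBA (121, 70.4 and 115.4) the values at 6 h gave changes of -0.38 ± 0.32 and -0.50 ± 0.32, neither called. The C57 change differed from that of the others by 1.30 ± 0.37 (adjusted p = 0.0392). Limma's moderated F test for a difference in the change between strains was not called (adjusted p = 0.0833). The C57 change lost its call without any 1 of 19 arrays, with values from 0.84 without C57181 to 1.01 without C57237, and the difference between strains lost its call without any 1 of 9 arrays. The C57 change also lost it with scaling to the 75th percentile, no filter and only the groups compared (adjusted p up to 0.091). The difference lost it with that scaling and with no filter (adjusted p up to 0.0557).

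Aldh1l1 is the folate enzyme that takes formyltetrahydrofolate to carbon dioxide and tetrahydrofolate, and it shared features with Aldh1b1. Both were highest in SJL before the dose, and both were called higher in C57 at 6 h. Over the 12 group means, which themselves hold both features, their Pearson correlation was 0.83, the highest of any pair among the 9 genes. It is a description over groups that share arrays and scaling. SJL had 7555, 7761 and 6453 at 0 h, and the other 9 mice lay between 4129 and 5451, with no overlap. The SJL difference from the others was 0.60 ± 0.10 (1.52-fold, adjusted p = 0.00018). C57 went from 4968, 5101 and 5451 at 0 h to 6688, 7723 and 7162 at 6 h, a change of 0.47 ± 0.12 (1.39-fold, adjusted p = 0.0128). The C57 mice at 6 h all exceeded those at 0 h, and the call was lost without C57180 (0.44) or C57236 (0.42) and with quantile normalization (0.26). The C57 change of Aldh1l1 was not called as different from that of the other strains (0.34, adjusted p = 0.185). Its moderated F test for the change was not called either (adjusted p = 0.182). Aldh1l1 changed by 0.21 in SMJ and 0.22 in DBA at 6 h, neither called. The mean change was 0.23 ± 0.06 at 3 h (adjusted p = 0.0218) and 0.22 ± 0.06 at 6 h (adjusted p = 0.00643), and with quantile normalization 0.13 and 0.01, no longer called. In SJL Aldh1l1 changed by -0.03 ± 0.12 at 6 h. The dimmer probe set 1424401_at gave -0.01 ± 0.18 at 6 h and -0.30 ± 0.29 for SJL against the others at 0 h, neither called, so the calls rest on 1424400_a_at.

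The promoter windows of Aldh1b1 and Aldh1l1 are shown because both genes were highest in SJL at 0 h and called higher in C57 at 6 h. Each runs from 250 bases before to 50 bases after the annotated start, taken from RefSeq for GRCm38.p6, where 8 of the 9 genes have an entry. Aldh1b1 is at chr4:45798772-45799071 and Aldh1l1 at chr6:90550543-90550842, both on the plus strand, and capitals mark the motifs found.
Aldh1b1: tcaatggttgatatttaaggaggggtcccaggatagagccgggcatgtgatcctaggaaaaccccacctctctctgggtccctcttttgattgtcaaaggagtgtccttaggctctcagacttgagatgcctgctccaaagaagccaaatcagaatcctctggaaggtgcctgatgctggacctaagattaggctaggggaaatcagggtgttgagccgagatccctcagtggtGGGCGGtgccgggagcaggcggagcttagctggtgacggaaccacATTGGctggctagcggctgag
Aldh1l1: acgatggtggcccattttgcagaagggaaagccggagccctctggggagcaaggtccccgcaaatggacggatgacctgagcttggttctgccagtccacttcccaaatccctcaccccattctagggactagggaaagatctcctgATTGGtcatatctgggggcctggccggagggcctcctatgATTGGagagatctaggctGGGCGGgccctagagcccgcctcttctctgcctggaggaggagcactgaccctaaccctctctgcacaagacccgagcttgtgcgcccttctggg
A total of 7 motifs were searched on both strands: the TATA box TATAAA, the CCAAT box CCAAT, the GC box GGGCGG, the AP-1 site TGANTCA, the E-box CACGTG, the antioxidant response core TGACNNNGC and the xenobiotic response core GCGTG. Both windows hold a GC box, at -16 and -45 from the start, and CCAAT boxes on the reverse strand, at 30 in Aldh1b1 and at -103 and -63 in Aldh1l1. The GC box is found in 35.7% and the CCAAT box in 37.4% of the 32851 promoter windows in the table.

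Aldh1a1, the cytosolic retinal dehydrogenase that makes retinoic acid, was lower in SJL at 3 h and back by 6 h. SJL had 9285, 11425 and 9614 at 0 h, 7223, 6954 and 7277 at 3 h, and 9412, 9695 and 11404 at 6 h. The 3 h mice did not overlap either other time. The fall was -0.49 ± 0.13 (adjusted p = 0.016) and the rise from 3 h to 6 h 0.50 ± 0.13 (adjusted p = 0.0427), where 2% of all genes were called in SJL. In C57 the value fell from 8997, 8967 and 8780 at 3 h to 6425, 5979 and 7061 at 6 h, by -0.46 ± 0.13 (adjusted p = 0.0429, with 4.46% of genes called), and the C57 mice at 0 h were spread from 5790 to 8761. The change in SJL at 3 h differed from that of the other strains by -0.66 ± 0.15 (adjusted p = 0.0112). Without SJL2 the SJL fall was -0.40 and the difference -0.57, neither called, and without SJL40 the fall was -0.47 and not called. The SJL rise lost its call without any 1 of 15 arrays and the C57 fall without any 1 of 7. The mean change at 6 h was -0.04 ± 0.07 (adjusted p = 0.711) and with quantile normalization -0.34, which was called. In SMJ at 6 h that normalization turned 0.07 to -0.46.

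Aldh8a1, the cytosolic enzyme that oxidises aminomuconic semialdehyde in the kynurenine route of tryptophan and also acts on retinal, fell in SJL, SMJ and DBA. SJL had 3656, 3266 and 3259 at 0 h, 1740, 2761 and 2141 at 3 h, and 2290, 2117 and 2119 at 6 h. SMJ had 2736, 2812 and 2964 at 0 h, 2337, 2557 and 2700 at 3 h, and 1247, 1197 and 1431 at 6 h. DBA had 3128, 2941 and 3021 at 0 h, 2766, 2670 and 3077 at 3 h, and 1840, 1629 and 1804 at 6 h. In each of these strains all mice at 6 h lay below all mice at 0 h, and in SJL and SMJ those at 3 h did too. The share of all genes that separate so was not counted. C57 had 2887, 3143 and 3159 at 0 h, 2860, 2909 and 2869 at 3 h, and 2431, 2448 and 2570 at 6 h. The C57 mice also did not overlap, but the change of -0.30 ± 0.11 missed the threshold (adjusted p = 0.0915), although it was called at the same value without SJL39 or SJL40.

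The changes of Aldh8a1 at 6 h were -0.64 ± 0.11 in SJL (adjusted p = 0.000476), -1.14 ± 0.11 in SMJ (2.20-fold lower, adjusted p = 1.178e-07) and -0.79 ± 0.11 in DBA (adjusted p = 2.751e-05). The SMJ fall exceeded that of the others by -0.56 ± 0.13 (adjusted p = 0.0211), and the C57 fall was smaller than that of the others by 0.55 ± 0.13 (adjusted p = 0.0151). The SMJ difference was lost with the mean of both probe sets (adjusted p = 0.0648) and without SMJ57, SMJ58, SMJ101 or SMJ102 (-0.57, -0.53, -0.54 and -0.51), and the C57 difference without C57180 (0.51). At 3 h the SJL change of -0.64 ± 0.11 was called (adjusted p = 0.000466) and that of SMJ was not (-0.17, adjusted p = 0.754). The SJL change at 3 h differed from the others by -0.52 ± 0.13 (adjusted p = 0.019). That difference was -0.47 without SJL1 and -0.36 without SJL39, neither called, and its call was also lost with quantile normalization (-0.44, adjusted p = 0.0889), with the mean of both probe sets (-0.27, adjusted p = 0.389) and when only the groups compared were fitted (adjusted p = 0.0559). From 3 h to 6 h SJL changed by 0.00 ± 0.11 and SMJ by -0.97 ± 0.11. The second probe set, 1427336_at, fell by 0.74 ± 0.09 in the mean at 6 h (adjusted p = 3.1e-07) and its change of -0.23 ± 0.09 at 3 h was not called (adjusted p = 0.131). In SJL that set had 2353, 2497 and 2507 at 0 h and 1413, 2653 and 2387 at 3 h, which overlapped, and its SJL change differed from the others by -0.02 ± 0.20 (adjusted p = 0.98).

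Aldh3a2, the membrane enzyme that oxidises long-chain fatty aldehydes and whose loss in people causes Sjögren-Larsson syndrome, was the gene of the 9 that fell most and in every strain. SJL had 1492, 1670 and 1774 at 0 h, 825, 733 and 778 at 3 h, and 868, 733 and 552 at 6 h. SMJ had 1715, 2516 and 2589 at 0 h, 1635, 1710 and 1557 at 3 h, and 705, 827 and 696 at 6 h. DBA had 2694, 2751 and 2086 at 0 h, 2087, 2183 and 2288 at 3 h, and 965, 764 and 1371 at 6 h. In SJL the mice at 3 h and 6 h overlapped, and in DBA those at 3 h overlapped those at 0 h. C57 had 2118, 2600 and 1789 at 0 h, 2274, 2474 and 2725 at 3 h, and 331, 269 and 445 at 6 h. In every strain the mice at 6 h lay below all mice at 0 h, a separation not counted over all genes. In C57 the mice at 3 h still overlapped those at 0 h.

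The changes of Aldh3a2 at 6 h were -1.21 ± 0.20 in SJL (adjusted p = 0.000233), -1.59 ± 0.20 in SMJ (adjusted p = 3.105e-06), -1.31 ± 0.20 in DBA (adjusted p = 6.05e-05) and -2.64 ± 0.20 in C57 (6.24-fold lower, adjusted p = 1.794e-09). The mean was -1.69 ± 0.10 (adjusted p = 9.325e-13). At 3 h the change was -1.07 ± 0.20 in SJL (adjusted p = 0.000796), and the changes in SMJ (-0.45), DBA (-0.19) and C57 (0.21) were not called. The C57 fall at 6 h exceeded that of the other strains by -1.27 ± 0.23 (adjusted p = 0.00198). The SJL fall at 3 h exceeded that of the others by -0.93 ± 0.23 (adjusted p = 0.0181), and this was not called without SJL4 (-0.88) or SJL40 (-0.89). From 3 h to 6 h Aldh3a2 fell by 2.85 ± 0.20 in C57 (adjusted p = 4.21e-10), by 1.14 in SMJ and by 1.12 in DBA, and changed by -0.14 ± 0.20 in SJL. In that interval 11.9% of all genes were called in SMJ and 2.52% in DBA.

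The promoter windows of Aldh3a2 and Aldh8a1, the genes that fell in most strains, were read in the same way. Aldh3a2 is at chr11:61267137-61267436 on the minus strand and Aldh8a1 at chr10:21377050-21377349 on the plus strand, in GRCm38.p6 from RefSeq, and capitals mark the motifs found.
Aldh3a2: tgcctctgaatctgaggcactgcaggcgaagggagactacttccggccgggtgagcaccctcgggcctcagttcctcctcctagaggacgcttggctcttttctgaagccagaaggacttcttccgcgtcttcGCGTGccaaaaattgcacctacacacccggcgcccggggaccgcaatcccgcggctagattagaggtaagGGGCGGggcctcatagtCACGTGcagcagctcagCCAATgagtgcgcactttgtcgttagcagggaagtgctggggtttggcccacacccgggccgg
Aldh8a1: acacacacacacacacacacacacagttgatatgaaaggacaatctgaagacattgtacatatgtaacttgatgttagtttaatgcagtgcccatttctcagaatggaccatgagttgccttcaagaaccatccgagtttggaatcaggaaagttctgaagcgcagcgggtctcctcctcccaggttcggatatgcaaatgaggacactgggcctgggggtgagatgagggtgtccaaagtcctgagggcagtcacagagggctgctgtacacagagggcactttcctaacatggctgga
The Aldh3a2 window holds the core GCGTG at -117, a GC box at -47, the E-box CACGTG at -30 and a CCAAT box at -13. The E-box is found in 7.15% and the core GCGTG in 32.4% of all windows. None of the 7 motifs is in the Aldh8a1 window.

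Markers of zones and cell types also changed by 6 h, and not always in step with these falls. Pericentral hepatocytes surround the central vein, where acetaminophen injury begins, and 9 of their 11 markers fell in the mean at 6 h (median -1.40). In SJL at 3 h, where Aldh3a2 and Aldh8a1 were already called lower, 1 of the 11 was called lower (median -0.42). At 6 h 3 of the 11 fell in SJL (median -0.75), 8 in SMJ (-1.49), 6 in DBA (-1.10) and 10 in C57 (-2.40). Their summed signal in C57 went from between 26560 and 31510 at 0 h to between 6879 and 13830 at 6 h, whereas in SMJ it was between 27720 and 29700 at 0 h and between 25140 and 30370 at 6 h. Within the SMJ sum Cyp2e1, the cytochrome P450 that activates acetaminophen, rose from a mean of 14210 to 21940 (0.63 ± 0.21, adjusted p = 0.0364), while 8 of the 11 markers fell. Among the 8 periportal markers 3 rose and 1 fell. The fall was that of Ass1, read by a dim probe set with a median signal of 91.7, where the medians of the other periportal markers ran from 2688 to 13450. Of 7 neutrophil markers 4 rose, with sums of 146 to 427 at 0 h and 827 to 1036 at 6 h in C57. Of 9 endothelial markers 7 rose in the mean, among them Vwf (0.66) and Pecam1 (0.56), and in C57 6 rose, with sums of 2844 to 3829 at 0 h and 4427 to 4924 at 6 h. Of 10 markers of Kupffer cells and macrophages 2 rose, Cd14 (2.61) and Cd68 (0.96). Of 4 bile duct markers Sox9 rose in the mean (1.35), and in SMJ 3 rose, with sums of 169.6 to 204.9 at 0 h and 468.9 to 1088 at 6 h. Of 9 stellate cell and fibroblast markers 2 rose and 2 fell. The counts of macrophage and of stellate cell markers lie not far from the shares of all genes. Of 6 general hepatocyte markers 5 rose, with a median of 0.39. These 6 are bright, with median signals from 10470 to 23250. Whether the rises of hepatocyte and periportal markers, and of Cyp2e1 in SMJ, hold with quantile normalization was not tested. Lymphocyte markers summed to between 108 and 198 at 6 h, and 0 of the 5 tested were called (0 at an unadjusted p under 0.05 in limma). The part of these shifts in the falls of Aldh3a2 and Aldh8a1, or in the rises of Aldh2 and Aldh1l1, was not tested. In C57 the change of Aldh3a2 lay near the median of the pericentral markers, and that of Aldh8a1 lay above 10 of the 11, as the plot beside zonal markers shows.

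**Figure D4:**
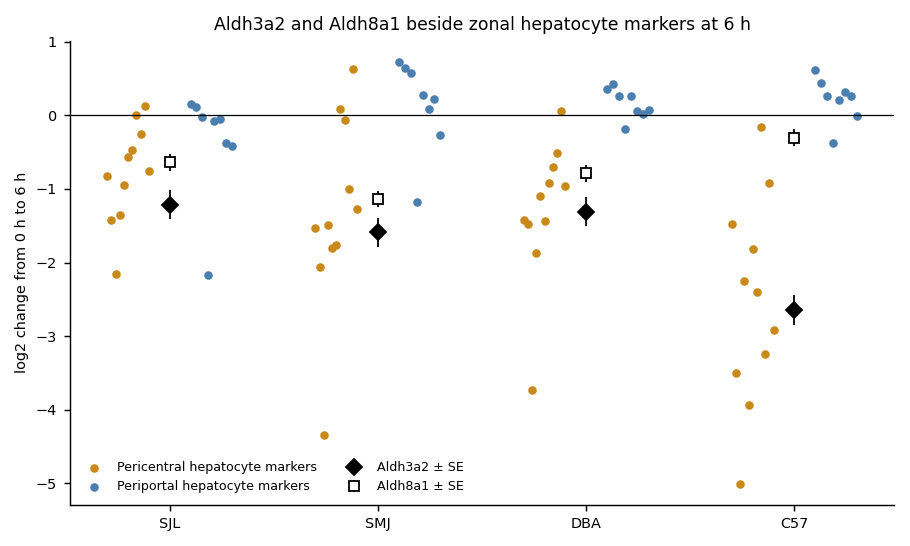
Log2 change from 0 h to 6 h in each strain for 11 pericentral and 8 periportal hepatocyte markers (1 point per gene), with Aldh3a2 and Aldh8a1 and bars of 1 standard error. The median of the pericentral markers was -2.40 in C57 and -0.75 in SJL, against -2.64 and -1.21 for Aldh3a2 and -0.30 and -0.64 for Aldh8a1.

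Correlations across genes lay between 0.914 and 0.963 over the 36 pairs within groups, with 0 identical pairs, and correlations between groups are not given here. The lowest were those of SJL39, 0.914 with SJL40 and 0.918 with SJL42, whereas SJL40 and SJL42 had 0.944. The ratio of the 3' to the 5' probe sets of actin, a sign of RNA length, ranged from 1.28 to 1.87. Its group mean fell from 1.71 to 1.45 in SJL, from 1.57 to 1.35 in SMJ and from 1.77 to 1.44 in DBA between 0 h and 6 h. In C57 it was 1.64 at 0 h and 1.67 at 6 h. The same ratio for Gapdh ranged from 0.69 to 0.80. Its group mean went from 0.77 to 0.71 in SJL and from 0.72 to 0.75 in SMJ between 0 h and 6 h. It was 0.72 at both times in DBA, and 0.77 and 0.78 in C57. The part of RNA length in the changes of the 9 genes was not tested.

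Before the dose, 4 of the 9 genes (Adh1, Adh5, Aldh1b1 and Aldh1l1) differed between the strains by the moderated F test, where 26.1% of all genes did. The order at 0 h was DBA, SJL, SMJ, C57 for Adh1, with group means of 10588, 8430, 8025 and 7470. Of its 6 pairs of strains, DBA against C57 was called (adjusted p = 0.0104), and the F call of Adh1 was lost without DBA113, DBA115 or C57180 (adjusted p = 0.107, 0.125 and 0.055). That F call was also lost with scaling to the 75th percentile, quantile normalization and only the groups compared (adjusted p up to 0.0862). For Adh5 the order was C57, DBA, SJL, SMJ, with 5109, 4566, 4476 and 3488, and SMJ differed from each of the other strains, which did not differ from each other. For Aldh1b1 it was SJL, C57, SMJ, DBA, with 462 ± 126, 296 ± 86.3, 194 ± 71.5 and 145 ± 43.5 (SD, n = 3). Neighbours in that order were not called, whereas SJL differed from SMJ and DBA and C57 from DBA. For Aldh1l1 it was SJL, C57, SMJ, DBA, with 7257, 5173, 4828 and 4337, and SJL differed from each of the others, which did not differ from each other. For Aldh1a1, SJL and C57 differed (0.44 ± 0.13, adjusted p = 0.0284) although the F test missed the threshold (adjusted p = 0.0806). No pair was called for Adh4, Aldh2, Aldh3a2 or Aldh8a1 at 0 h, and the smallest of their adjusted F p-values was 0.108. The F test of Adh4 gave an adjusted p of 0.144, and 0.0103 without SJL39 or 0.0268 without SJL40. Of the 9 genes, 3 were called for SJL against SMJ, 2 for SJL against DBA, 2 for SJL against C57, 1 for SMJ against DBA, 1 for SMJ against C57 and 2 for DBA against C57, where all genes gave 11.1%, 9.98%, 12.8%, 9.1%, 9.76% and 11.8%.

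Set against the other 3 strains together before dosing, SJL had 2 genes called of 9 (Aldh1b1 and Aldh1l1, both higher), near the 12.1% of all genes. With quantile normalization the count was 4. Without C57182 the count was 4, with Aldh1a1 (0.33) and Aldh3a2 (-0.52) added. SMJ had 1 (Adh5, lower) against 9.41% of all genes and C57 had 1 (Adh5, higher) against 12.2%. DBA had 3 against 10.3%: Adh1 higher, Aldh1b1 lower by 1.01 and Aldh1l1 lower by 0.38. The DBA call of Aldh1b1 was lost without DBA113 (-0.86) or DBA114 (-0.94) and that of Aldh1l1 without DBA114 (-0.35) or DBA115 (-0.37).

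The levels of SJL were set against those of the sensitive strains after the dose as well, and whether the counts differ between times was not tested. At 3 h 6 of 9 levels were called, against 17.5% of all genes: Aldh1b1 (0.97) and Aldh1l1 (0.44) were higher, and Aldh3a2 (-1.41), Aldh2 (-0.47), Aldh1a1 (-0.37) and Aldh8a1 (-0.33) were lower. For Aldh3a2 the SJL mice lay between 733 and 825 and the other 9 between 1557 and 2725. The calls of Aldh1b1 and Aldh8a1 were lost without SJL39 (0.80 and -0.17), and that of Aldh1a1 without SJL40 (-0.35). When only the groups compared were fitted, the calls of Aldh1a1, Aldh1b1 and Aldh8a1 at 3 h were lost. Without SJL39 Adh4 was also called, at -0.88 in place of -0.06. At 6 h 4 levels were called, against 10.9% of all genes: Aldh1a1 (0.36) and Aldh8a1 (0.29) higher, Adh1 (-0.38) and Aldh2 (-0.36) lower. Without SJL44, SJL45, SJL48 or C57236 only 2 of the 9 levels were called. The count at 6 h was also 2 with scaling to the 75th percentile, with no filter and with the mean of all probe sets, and 0 when only the groups compared were fitted.

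The change itself differed between strains for 3 of 9 genes by the moderated F test, against 7.89% of all genes: Aldh3a2 (adjusted p = 6.132e-05), Aldh8a1 (adjusted p = 0.00118) and Aldh1a1 (adjusted p = 0.017). For 1 strain against the other 3 at 3 h, SJL had 3 genes called against 4.61% of all genes, and SMJ, DBA and C57 had 0 each against 0.00715%, 0.336% and 0% (in limma at an unadjusted p under 0.05, 0, 0 and 2 genes). At 6 h C57 had 4 called against 4.66% of all genes, SMJ 1 against 2.2%, and DBA and SJL 0 each against 0.672% and 0.393% (1 and 3 genes at an unadjusted p under 0.05). Each contrast sets a strain against the same other groups, so the contrasts are not independent.

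Of the other 17 tested genes of both families, 2 were lower at 6 h and 0 higher in the mean, against 20.1% and 12.5% of all genes. At an unadjusted p under 0.05 in limma 2 passed, and the plot of the whole families shows all 17. Aldh4a1, which makes glutamate in proline breakdown, fell by 0.32 ± 0.10 (adjusted p = 0.0112). Adhfe1, a hydroxyacid-oxoacid transhydrogenase, fell by 0.28 ± 0.10 (adjusted p = 0.0286). Aldh6a1, of valine breakdown, and Aldh5a1, succinic semialdehyde dehydrogenase, had changes of -0.14 ± 0.07 and -0.23 ± 0.12, neither called. Within strains at 6 h, between 7.02% (SJL) and 20.9% (SMJ) of all genes were called, and 1 of the 17 was called in any strain. This was Aldh1l2, the mitochondrial counterpart of Aldh1l1, higher by 1.5 in C57 (adjusted p = 0.0409) and named after its value was seen. Its mean signals there, 9.36 at 0 h and 30.1 at 6 h, both lie under the median of 30.8 used as the filter, so this change comes from a dim probe set. The median change of the 17 was -0.13.

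**Figure D5:**
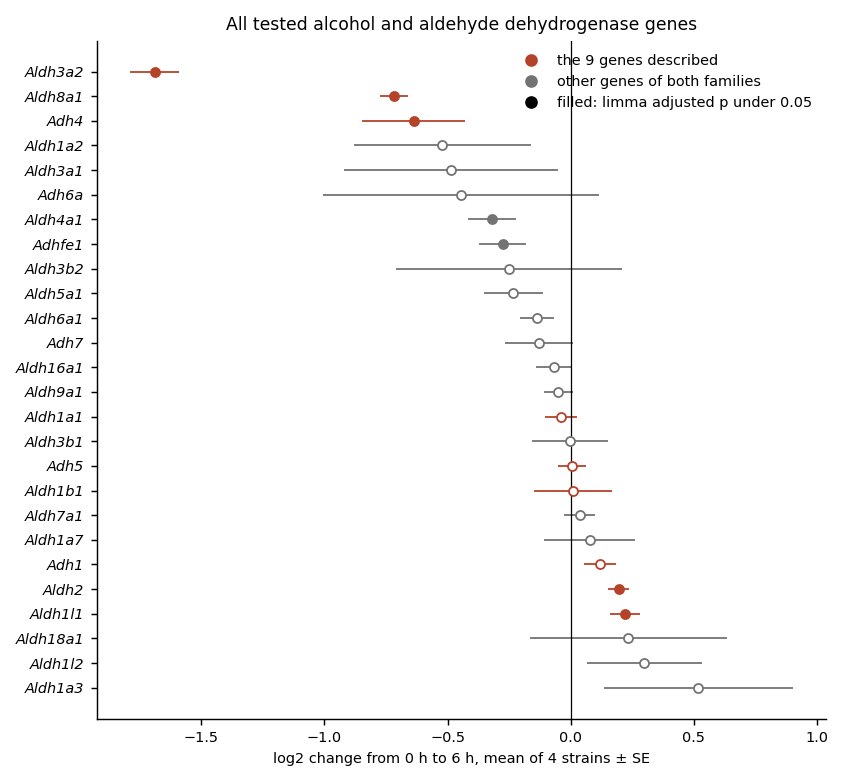
Log2 change at 6 h against 0 h, averaged over the 4 strains and with bars of 1 standard error, for the 9 genes described and the 17 other tested genes of both families. Filled points have a limma adjusted p under 0.05, with Aldh3a2 at -1.69 and Aldh1l1 at 0.22 as the lowest and highest of the filled points.

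Genes that work beside the 9 were counted by pathway at 6 h, in the mean of the strains. In ethanol and acetate handling 1 of 4 rose and 0 fell: Cat, the peroxisomal catalase, rose by 0.22. Cyp2e1, the P450 that oxidises ethanol and acetaminophen, had a mean change of -0.03, with 0.63 in SMJ and -0.92 in C57, both called. Among 9 genes of formaldehyde and folate one-carbon chemistry, around Adh5 and Aldh1l1, 2 rose and 2 fell. Mthfd2, the mitochondrial folate dehydrogenase, rose by 1.41 ± 0.18 (adjusted p = 1.174e-06) and rose in each strain. Ftcd, which passes histidine carbon to folate, rose by 0.28. Shmt1, cytosolic serine hydroxymethyltransferase, fell by 0.46, and Mthfd1, the cytosolic folate dehydrogenase, fell by 0.28 in the mean but rose by 0.49 in C57. The median of these 9 genes was -0.01.

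In retinoid metabolism, around Adh1, Adh4 and Aldh1a1, 2 of 16 genes rose and 6 fell (median -0.15). Bco1, which cleaves beta-carotene, rose by 0.62, and Rbp4, the plasma carrier of retinol, by 0.38. Rdh16, a retinol dehydrogenase, fell by 0.54 and Dhrs3, a retinal reductase, by 0.52. Among 10 genes of fatty aldehyde and omega oxidation, around Aldh3a2, 0 rose and 3 fell (median -0.05): Cyp4f15, a fatty acid hydroxylase, by 0.52, Hacl1, of peroxisomal alpha oxidation, by 0.51, and Cyp4a12a, another hydroxylase, by 0.44. Cyp4a14 had a change of 0.32, not called. In C57 Cyp4a12a fell by 1.79 (adjusted p = 2.751e-05).

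In tryptophan and kynurenine breakdown, around Aldh8a1, 1 of 8 genes rose and 3 fell (median -0.15). Kynu, kynureninase, fell by 0.60, Ido2, an indole dioxygenase, by 0.64, and Aadat, a kynurenine aminotransferase, by 0.32, whereas Tdo2, the hepatic tryptophan dioxygenase, rose by 0.22. Of 14 other aldehyde-clearing enzymes 5 rose and 3 fell (median 0.05). Akr1b8, an aldo-keto reductase, rose by 1.69 ± 0.14 (adjusted p = 3.931e-10) and in each strain, and Cbr3, a carbonyl reductase, by 1.28. Akr1c6, a hydroxysteroid dehydrogenase, fell by 1.52 in the mean and fell by 3.44 in C57, and Akr1c14 of the same family fell by 0.79 in the mean. All these counts stand against 12.5% of tested genes called higher and 20.1% called lower.

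The genes most like each of the 9 were taken as the 2 with the highest Pearson correlation over the 12 group means of log2 signal, which is a description of groups on the same arrays. For Aldh8a1 they were Nudt16 (0.971) and Trim23 (0.971), and for Aldh3a2 Blmh (0.939) and Vps54 (0.936). For Aldh1b1 they were Trappc6a (0.928) and Usp2 (0.924), and for Aldh1l1 Resf1 (0.947) and Uqcr10 (0.939). Adh1 was closest to Gcsh (0.958) and Ifitm3 (0.94), Adh4 to Psmb9 (0.953) and Kdelr1 (0.95), and Adh5 to Nmnat3 (0.949) and Zadh2 (0.948). Aldh2 was closest to Stx1a (0.908) and Ndufa7 (0.908), and Aldh1a1 to C9 (0.857) and Ntng1 (0.841). None of these 18 genes is another of the 9, and among the 9 themselves Aldh3a2 and Aldh8a1 had a correlation of 0.60.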

How the data were processed

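Liver RNA of 36 mice in 12 groups of 3 was measured on 1-colour Affymetrix arrays. Per the submitters' processing notes MAS5 (version not given) made the deposited intensity of each probe set; the trimmed mean of every array was 150, so no further scaling was applied. An offset of 2.77, the 10th percentile of all values, was added before log2. A gene was represented by its brightest probe set with 1 symbol, passing over sets named _s_at or _x_at, and was tested if at least 3 arrays exceeded the median of 30.8. Limma 3.58.1 in R 4.3.3 fitted all 12 groups with 24 residual degrees of freedom. The p-values are two-sided and measure the spread between mice. Fold changes understate low genes because of the offset. Mouse numbers differ between groups, so no mice were paired, and the labels give no batch. Promoters came from RefSeq tables.

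The 9 genes, the lists and the rule for named genes (all 9, up to 4 per list by smallest p at 6 h, and 2 most alike) were chosen with earlier results of these data known. Alternatives were 2 other offsets, 2 scalings, 2 filters, the mean of all probe sets, an intensity trend, a robust prior, a fit of only the groups compared and leaving out each array. The fit was tested on simulated data.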

Additional observations from a re-analysis of the deposited data

Results flagged for a closer look

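These differences between strains in the change after acetaminophen passed limma's test of the difference itself. At 3 h the change in SJL differed from the mean of the other strains by -0.66 (log2) for Aldh1a1, -0.93 for Aldh3a2 and -0.52 for Aldh8a1. At 6 h the change in C57 differed by -1.27 for Aldh3a2, 0.55 for Aldh8a1, 1.30 for Aldh1b1 and 0.44 for Adh5, and the change in SMJ differed by -0.56 for Aldh8a1. The moderated F test over strains gave adjusted p-values of 6.132e-05 for Aldh3a2, 0.00118 for Aldh8a1 and 0.017 for Aldh1a1. By the same F test Aldh1b1 (adjusted p = 0.0833) and Adh5 (adjusted p = 0.168) were not called. Their C57 differences lost the call in 2 and 6 of 10 other settings. The C57 difference of Aldh3a2 kept its call without any 1 of the 36 arrays, and each of the other single-strain differences lost it without at least 1 array.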

How the results depend on the processing

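Of 62 calls among 279 results of the 9 genes, 29 kept their call in all 10 other settings and 25 also without any 1 array, including the falls of Aldh3a2 and Aldh8a1 in the mean at 6 h. The others, 33 of 62, lost it in some setting. With quantile normalization Adh1, Adh5 and Aldh2 turned to -0.17, -0.16 and -0.12 in the mean at 6 h, and Aldh2 and Aldh1a1 in SMJ to -0.21 and -0.46; with the mean of all probe sets Aldh2 turned to -0.031. Why these values moved was not tested. The count of genes called at 6 h fell from 5 to 3 with the mean of all probe sets, where dimmer sets enter. The 13 calls within strains fell to 5 when only the groups compared were fitted, with fewer arrays to estimate the spread. For SJL against the others at 0 h the count was 4 with quantile normalization, 1 with the mean of all probe sets and 2 to 4 without single arrays. For SJL levels at 6 h it fell from 4 to 2 with scaling to the 75th percentile, 2 with no filter, 2 with the mean of all probe sets, 0 with only the groups compared, and 2 to 4 without single arrays. No paired analysis was possible because mouse numbers are not shared between groups. With 3 mice per group, small changes may be missed, and dim probe sets have wide errors.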
